A study of Drosophila melanogaster with 3 samples.

Results

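The genes that lay out the parts of fly limbs were read for binding of Dbx, a homeodomain transcription factor, in chromatin of Drosophila melanogaster embryos. The 10 genes, of 13945 protein-coding genes on the main chromosomes, were chosen by name: Dll, hth, exd, dac, ap, Lim1, al, C15, B-H1 and B-H2. Whole embryos of 8 to 24 h that carry a Dbx-eGFP fusion transgene were sonicated to 200 to 800 bp, and an anti-GFP antibody was used for ChIP-seq, the sequencing of the DNA that comes down with a bound protein. There were 3 biological replicates of 1 group and no second group, so no contrast between conditions exists. Embryos were taken whole, and cells that do not make the fusion protein therefore contribute chromatin. The control experiment was not analysed here, and how far any site depends on the fusion protein was not tested.

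A fly leg is divided from body to tip by transcription factors that hold neighbouring domains. Homothorax (hth) and its partner Extradenticle (exd), both TALE homeodomain proteins, act near the body, the Ski/Sno family protein Dachshund (dac) in the middle, and the homeodomain protein Distal-less (Dll) toward the tip. Within the tip, Aristaless (al), C15, Lim1 and the Bar pair (B-H1 and B-H2), all homeodomain proteins, set the last segments and the claw. Apterous (ap), a LIM homeodomain protein like Lim1, sets the dorsal side of the wing. Dac is the one member without a homeodomain. Many of these genes are also used in the embryonic nervous system, where Dbx marks interneurons.

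Peaks came as lists thresholded by the irreproducible discovery rate (IDR), the estimated share of irreproducible peaks among those at least as strong. The replicate lists held 3701, 3353 and 2519 peaks, and the series-level conservative list 4943. The longest series-level list held 6387. A gene was counted when a summit was nearest to its transcription start site (TSS) or lay in the gene or within 2 kb of it. Peaks were ranked by the authors' signal, which can be compared within a list and not between lists. Read depth behind the lists is unknown.

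A site in an intron of hth was present in all 3 replicate lists, and its sequence is shown first below. The second hth intron site passed in 2 replicates. The promoter sites of Lim1 and al are shown because they were in the conservative list, and the intronic Lim1 site because it held the homeodomain word TAATTA; all but the first were chosen after their values were seen. The sequences are from the plus strand of the RefSeq dm6 genome, centred on the summit, and the one at al stops at its start site. Capitals mark the word TAATTA, the hth protein's word TGACA, the GAGA factor's word GAGAG, and the repeat CACACA, on either strand.

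hth intron, chr3R:10597690-10597890: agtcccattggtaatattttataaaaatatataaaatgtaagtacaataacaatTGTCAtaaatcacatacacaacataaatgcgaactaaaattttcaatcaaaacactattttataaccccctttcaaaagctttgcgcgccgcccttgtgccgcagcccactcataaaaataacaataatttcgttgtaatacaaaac
hth second intron site, chr3R:10564358-10564558: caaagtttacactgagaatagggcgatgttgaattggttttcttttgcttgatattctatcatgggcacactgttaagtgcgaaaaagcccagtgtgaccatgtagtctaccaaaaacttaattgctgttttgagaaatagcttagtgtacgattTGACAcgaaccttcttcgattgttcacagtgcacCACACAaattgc
Lim1 promoter, chrX:8805824-8806024: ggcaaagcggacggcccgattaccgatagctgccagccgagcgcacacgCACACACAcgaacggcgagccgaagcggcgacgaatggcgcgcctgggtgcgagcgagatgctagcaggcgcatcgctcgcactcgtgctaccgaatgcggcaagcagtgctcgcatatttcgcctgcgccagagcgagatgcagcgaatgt
al promoter, chr2L:377944-378111: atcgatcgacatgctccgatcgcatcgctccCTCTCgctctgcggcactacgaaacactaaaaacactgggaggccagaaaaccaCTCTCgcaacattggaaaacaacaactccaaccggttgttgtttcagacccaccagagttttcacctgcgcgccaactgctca
Lim1 intron, chrX:8774148-8774348: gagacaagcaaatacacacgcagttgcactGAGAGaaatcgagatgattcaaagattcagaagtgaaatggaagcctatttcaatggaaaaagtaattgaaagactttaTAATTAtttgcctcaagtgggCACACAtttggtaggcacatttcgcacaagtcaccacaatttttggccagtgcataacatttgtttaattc

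In the conservative list 4 of the 10 limb genes had a summit, Dll, hth, Lim1 and al. By the same rule 40.8% of all protein-coding genes had one. The 4 members held 8 summits between them. By this rule the count was close to the genome's rate, a share that was not matched for gene length. The same 4 members were called by the gene body plus 2 kb alone (39.3% of all genes). They were also called with start sites of all annotated genes (40.2%) and by the nearest TSS alone (23.9%). The nearest TSS or the gene body without a margin (25.6%) called the same 4. Whether 4 of 10 exceeds any of these shares was not tested. Dll and hth had a summit present in all 3 replicate lists, 2 of the 10 members against 20.4% of all genes. The same 2 members were called with an overlap of 0.5 of the peak (18.8% of all genes), with summits within 100 bp (19.8%) and at an IDR of up to 0.05 in every replicate (24.6%). In replicate 1 the members with a summit were Dll and hth, where 33.5% of all genes had one. In replicate 2 they were Dll, hth, Lim1 and B-H2, where 32.5% of all genes had one. In replicate 3 they were again Dll and hth, where 26.5% of all genes had one. The mean was 2.67 ± 1.15 members (SD, n = 3). In the longest list 5 members had a summit, Dll, hth, dac, Lim1 and B-H2, against 47.5% of all genes, so al was in the conservative list alone and dac and B-H2 were not in it. Across these 5 lists the members had 12 sites at 6 genes, where 50% of all genes, 6973 of 13945, had a summit in at least 1 of the lists, and exd, ap, C15 and B-H1 had none. Under stricter rules the conservative count was 3 within 1 kb of a TSS (Dll, Lim1 and al; 27.0% of all genes), 1 among the 500 peaks of highest signal (Dll; 7.03%) and 2 in the upper part of the list by signal, cut at its middle (Dll and hth; 27.2%).

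**Figure D1:**
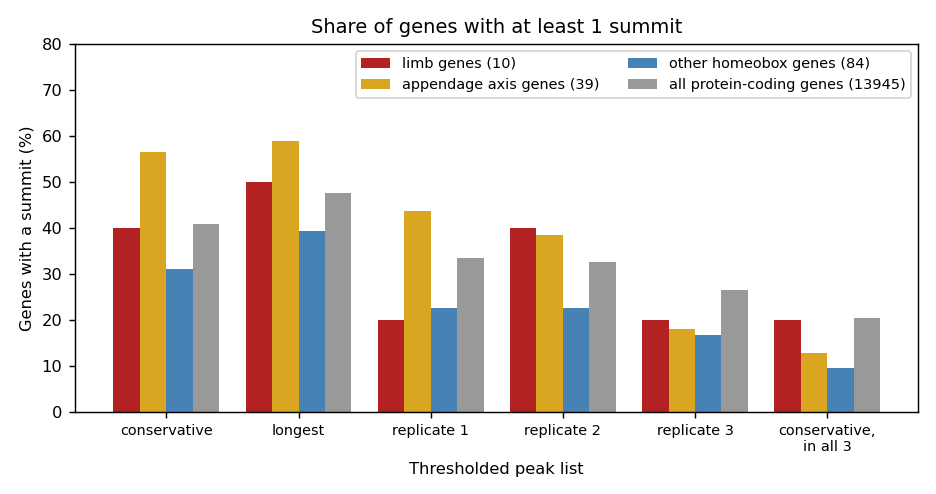
Share of genes with at least 1 summit (vertical axis, percent) in each thresholded peak list (horizontal axis), for the limb genes, the appendage axis genes, other homeobox genes and all protein-coding genes. The limb genes stand at 40.0% in the conservative list, beside 40.8% of all genes, and 2 of the 10 beside 20.4% for peaks present in all 3 replicates.

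Longer genes had summits more often, and the members differ widely in length. Of all genes spanning under 5 kb, 35.1% had a conservative summit, and the member in that class, exd, had none. From 5 to 10 kb the share was 54.4%, and al of al, B-H1 and B-H2 had one. From 10 to 20 kb it was 58.2%, and neither dac nor C15 had one. From 20 to 50 kb it was 61.3%, and Dll and Lim1 but not ap had one. Above 50 kb it was 64.8%, and hth, which spans 132008 bp, had one. All members but exd thus lay in classes with a share above the 40.8% of all genes.

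Dll carried the strongest site of the group. Dll (FBgn0000157, 2R 24814822 to 24835667, plus strand, dm6) had its summit at 2R 24814734, 88 bp upstream of its single TSS, in a peak from 24814580 to 24814855. The peak had a signal of 563 and ranked 203 of 4943 in the conservative list. In replicate 1 it had a signal of 239 and ranked 119 of 3701, within the top 3.22% of that list. In replicate 2 it had 183 and ranked 249 of 3353, within the top 7.43%, and in replicate 3 it had 132 and ranked 373 of 2519, within the top 14.8%. All 3 replicates thus held this promoter site high in their lists, replicate 1 highest. The IDR was 1e-05 in each of them. The replicate summits lay 1, 32 and 0 bp from the conservative one. The nearest other protein-coding TSS, that of CG42851, was 5497 bp away from that of Dll, and no other annotated gene lay over the summit.

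A weaker peak lay further upstream of Dll, between genes. Its summit at 2R 24813840 was 982 bp from the TSS and 894 bp from the promoter summit, with a signal of 100.4 and rank 3681 in the conservative list. Replicate 1 held it at a signal of 57.3, rank 2040 and an IDR of 0.00309. In the unthresholded ranked lists, replicate 2 had a peak there with a signal of 40.2 and an IDR of 0.118, and replicate 3 one with a signal of 19.1 and an IDR of 0.566. Replicate 1 alone therefore held the upstream peak past the threshold of 0.01, while the promoter peak passed in all 3.

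The gene whose best site had ranks closest to those of Dll over the conservative and replicate lists was Ptpmeg2 on X, a protein tyrosine phosphatase gene by its name, with a promoter summit. Its ranks were 210 in the conservative list and 121, 276 and 346 in replicates 1, 2 and 3. The absolute differences in percentile summed to 2.07 over the 4 lists, the smallest of 2839 genes. Next were CG13876 and Gk1 on 3L, which share 1 promoter summit of rank 220 and a sum of 3.58.

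The gene hth, the proximal partner of exd, carried 3 conservative sites, more than any other member. It is also the longest member, with 132008 bp, and the number of sites was not matched for length. It spans 3R 10507561 to 10639568 on the minus strand (FBgn0001235) and has 2 TSSs. The strongest site had its summit at 3R 10597790, in an intron 41.8 kb from the first TSS, 16486 bp downstream of the second and 4189 bp from the nearest exon edge. It had a signal of 321 and ranked 608 in the conservative list. In replicate 1 its signal was 104.7 with rank 685, in replicate 2 it was 110.6 with rank 690, and in replicate 3 it was 97.9 with rank 625. The ranks lay within the top 18.5%, 20.6% and 24.8% of the lists, so the 3 replicates placed this site at similar heights. Its IDR was 3.00e-05, 2.23e-05 and 1e-05 in replicates 1, 2 and 3.

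The second hth site, in an intron 75.1 kb from the first TSS at 3R 10564458, lay 33332 bp from the first one. It had a conservative signal of 139 and rank 2393. Replicates 1 and 2 held it with signals of 48.3 and 48.2 and IDRs of 0.00346 and 0.00783, while replicate 3 had a peak with a signal of 35.2 and an IDR of 0.101, short of the threshold. The weakest hth site was in a coding exon at 3R 10605357, 11 bp from an exon edge, with a conservative signal of 84.2 and rank 4236. No replicate list held it. In the ranked lists its IDR was 0.0498 in replicate 1, 0.0248 in replicate 2 and 0.501 in replicate 3. The replicate 3 peak that overlapped it had its summit 156 bp away. Among the hth sites, the number of replicates past the threshold was thus 3, 2 and 0 in the order of their signal.

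**Figure D2:**
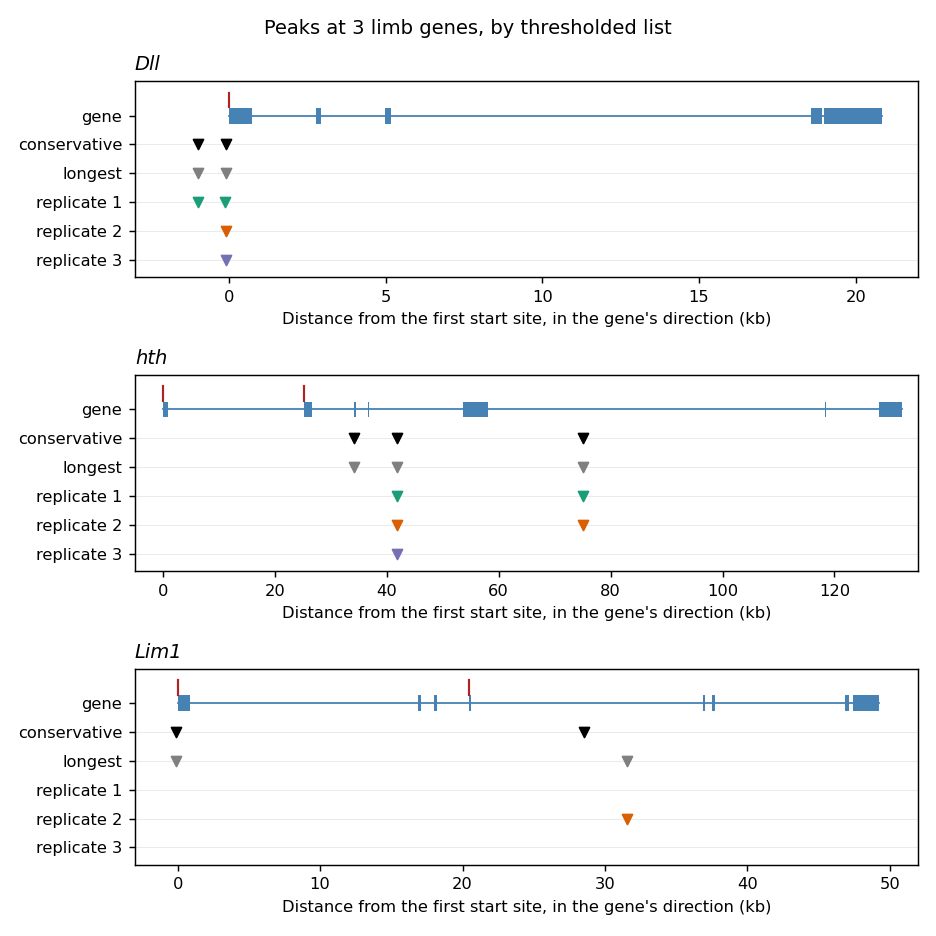
Peaks of each thresholded list (rows; triangles at the peak centre) at Dll, hth and Lim1, plotted by distance from the gene's first start site in kb, with exons as blue boxes, introns as lines and start sites as red ticks. The Dll promoter site and the hth site at 41.8 kb have a triangle in every row, and the other sites do not.

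The partner of hth, exd (FBgn0000611, X 15992468 to 15996509, plus strand), had no summit in these lists. Its peak of highest signal in the ranked list of replicate 1 had a signal of 37.1 and an IDR of 0.0265. That summit lay 557 bp upstream of exd, and the neighbouring gene CG46312 has a TSS 494 bp from one of exd. Which of the genes the peak belongs to was not tested. In replicates 2 and 3 the lowest IDR of any exd peak was 0.367 and 0.579. The nearest conservative summit was 82.3 kb away, near CycD, and 3.77% of protein-coding genes lay farther from one. The median gene lay 4323 bp from a conservative summit. Of these partner genes, hth thus had sites in every thresholded list used and exd in none of them.

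The gene of the middle domain, dac (FBgn0005677, 2L 16466512 to 16485998, minus strand), had 2 summits, both in the longest list near its low end. They were intergenic, 544 and 1791 bp upstream of the dac TSS, with ranks 5574 and 5598 of 6387. The outer one was nearer to Nepl8, whose TSS was 359 bp away, so it may belong to either gene by position. At the inner site the IDR was 0.639, 0.332 and 0.235 in replicates 1, 2 and 3. At the outer site it was 0.554, 0.0321 and 0.109. No replicate held a dac site past the threshold.

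Among the genes of the limb tip, Lim1 had sites that differed from list to list. Lim1 (FBgn0026411, X 8756539 to 8805804, minus strand) had a conservative promoter summit 120 bp upstream of its first TSS, at X 8805924, with a signal of 98.0 and rank 3769. In the ranked lists this site had signals of 40.4, 31.3 and 21.7 and IDRs of 0.0153, 0.264 and 0.810 in replicates 1, 2 and 3. Replicate 1 was closest to the threshold, and none passed it. The other conservative site of Lim1 was in an intron at X 8777254, with a signal of 79.3 and rank 4370. This site was not in the longest list. The peaks that overlapped it had IDRs of 0.655, 0.0381 and 0.809 in replicates 1, 2 and 3. The replicate 3 peak had its summit 343 bp away. A further Lim1 site, in an intron at X 8774248 and 3006 bp from the second, was not in the conservative list. Replicate 2 held it at a signal of 47.4, rank 2775 and an IDR of 0.00304, and the longest list held it at rank 5971. In replicates 1 and 3 the overlapping peaks had signals of 21.2 and 10.2, with IDRs of 0.230 and 0.729. That of replicate 3 had its summit 335 bp away.

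The gene al (FBgn0000061, 2L 378112 to 387439, plus strand) had 1 conservative summit, 68 bp upstream of its TSS at 2L 378044. It had a signal of 79.1 and rank 4375 of 4943, and its IDR in the series-level ranked list was 0.00923, just inside the threshold. The ranked list of replicate 1 had no peak that overlapped it. Replicate 2 had one with a signal of 37.0 and an IDR of 0.0580. Replicate 3 had one with a signal of 12.9 and an IDR of 0.733, whose summit was 175 bp away. The al site thus rested on the series-level list, with no replicate past the threshold.

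The Bar genes are 2 neighbouring homeodomain genes on X, and the site described here lies between them. It was counted for B-H2 by the nearest TSS alone, so it may belong to either gene by position. B-H2 (FBgn0004854, X 17314581 to 17324175, plus strand) was nearest to a summit at X 17330589, which lay 6414 bp beyond its end and 66889 bp from the TSS of B-H1 (FBgn0011758, X 17397478 to 17403278, plus strand). The site was in replicate 2, with a signal of 47.1, rank 2797 and an IDR of 0.00609, and in the longest list, with rank 3574. In replicate 3 it had a signal of 35.3 and an IDR of 0.0167, close to the threshold, and in replicate 1 a signal of 24.4 and an IDR of 0.632. The lowest IDR of any ranked peak at B-H1 was 0.408, 0.153 and 0.406 in replicates 1, 2 and 3, and the nearest conservative summit was 62.4 kb from that gene. C15 (FBgn0004863, 3R 21499986 to 21512814, plus strand) had lowest IDRs of 0.822, 0.242 and 0.0918 in replicates 1, 2 and 3. The peaks behind the last 2 were at -255 and -164 bp from the C15 TSS.

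The wing gene ap (FBgn0267978, 2R 5706202 to 5727525, minus strand) was farther from a conservative summit than any other member. The nearest was 247 kb away, at the promoter of BubR1, and 1.08% of protein-coding genes lay farther. Its region held 3, 7 and 4 peaks in the ranked lists of replicates 1, 2 and 3. The lowest IDR among them was 0.452, 0.457 and 0.324. For comparison, hth, a longer gene, held 119, 131 and 109 ranked peaks. The members closest in length to ap, which spans 21324 bp, were Dll with 20846 bp and dac with 19487 bp. In replicates 1, 2 and 3, Dll held 8, 23 and 24 ranked peaks and dac 9, 11 and 19.

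**Figure D3:**
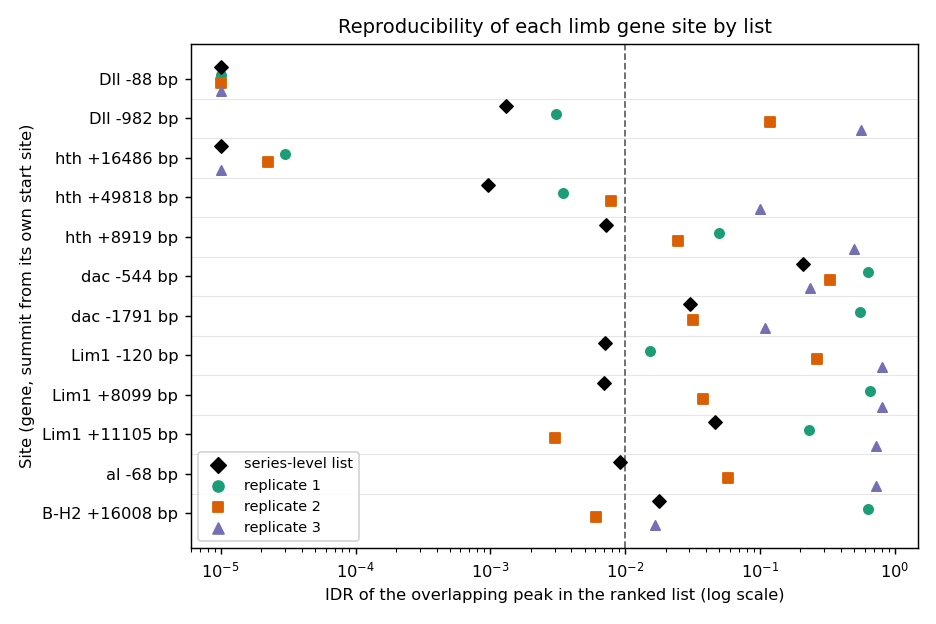
IDR of the peak that overlaps each of the 12 limb gene sites (horizontal axis, log scale) in the series-level ranked list from which the conservative list was taken and in the 3 replicates. The dashed line is the threshold of 0.01, 1e-05 is the lowest value in the lists, and sites are named by the distance of the summit from the gene's nearest start site in bp. The Dll -88 and hth +16486 sites lie left of the line in every list, and replicate 1 has no point for al.

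By position, 3 of the 8 conservative member summits were in promoters, within 250 bp of a protein-coding TSS, at Dll, Lim1 and al. This is 37.5%, with an exact (Clopper-Pearson) 95% interval of 8.52% to 75.5% that covers counting error only, and 51.4% of all conservative summits were in promoters. A further 3 were in introns (37.5%, against 30.5% overall), 1 in a coding exon and 1 between genes. The 2 recurrent sites were of different kinds, at Dll a promoter and at hth an intron. At 6 of the 8 sites the peak had a width of 400 bp, a width shared by 80.2% of all conservative peaks. The Dll promoter peak and the first hth intron peak were narrower, with 276 and 191 bp. Of the 8 sites 4 were in no replicate list, namely the hth exon site, both Lim1 sites and the al site, where 20.5% of all conservative peaks were in none. These 4 sites were weak, with ranks 4236, 3769, 4370 and 4375 of 4943, and signal was not matched in that share.

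The sites at Dll and Lim1 promoters were rich in G and C. Within 100 bp of the summit, 67.2% of bases at the Dll promoter and 64.7% at the Lim1 promoter were G or C, more than at 99.8% and 99.6% of all conservative sites. The Dll upstream site had 58.2%, the hth exon site 54.7% and the al promoter 54.2%. The median over all conservative sites was 39.3%. The recurrent hth intron site lay on the other side of it with 30.8%, so of the 2 sites held by all replicates, one was above 99.8% of conservative sites in this share and the other above 13.8%.

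**Figure D4:**
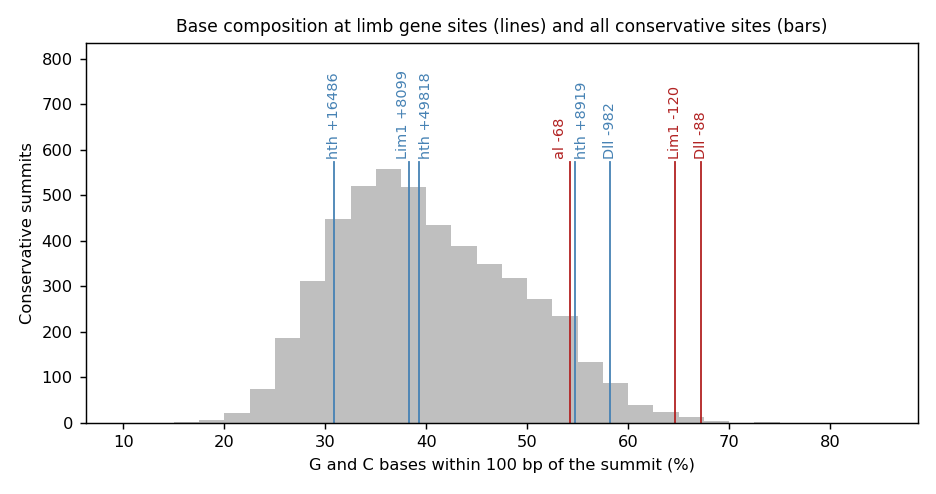
Share of G and C bases within 100 bp of the summit (horizontal axis) for all 4943 conservative summits (bars, number of summits) and for the 8 at limb genes (lines, red for promoters and blue for other sites, named by gene and distance from its nearest start site in bp). The Dll and Lim1 promoter sites lie at the right edge of the bars, with 67.2% and 64.7%, and the hth intron site at 30.8% lies left of the median of 39.3%.

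Many homeodomain proteins read words built on TAAT. The palindromic word TAATTA, searched on both strands within 100 bp of the summit, was in 0 of the 8 conservative member sites (exact 95% interval 0.0% to 36.9%). It was in 13.1% of all conservative sites and in 12.3% of windows of the same length spaced every 10000 bp along the genome. Of the 12 member sites, the one that held it was the intronic Lim1 site of replicate 2 printed above, where the word began 9 bp from the summit. Its core TAAT, which TAATTA holds on each strand, was in 6 of the 8 sites (75.0%), against 82.0% of all conservative sites. The exceptions were the promoters of Dll and al.

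The word TGACA, read by the hth protein, was in 5 of the 8 sites (62.5%, exact 95% interval 24.5% to 91.5%), at Dll, hth and Lim1. It was in 27.3% of all conservative sites, a share inside that interval, and in 29.2% of the spaced genome windows. At the Dll promoter it began 26 bp before the summit, and in the recurrent hth intron 46 bp before it. The GAGA factor's word GAGAG was in 3 of 8 sites, at Dll and al (37.5%, exact 95% interval 8.52% to 75.5%), against 27.4% of all conservative sites. The repeat CACACA was in 4 of 8 (exact 95% interval 15.7% to 84.3%), against 18.1% of all, a share inside that interval. The Dll upstream site held 7 overlapping or neighbouring copies of the repeat. The Zelda word CAGGTA was in 1 of 8, at the same Dll site (exact 95% interval 0.316% to 52.7%), against 4.07% of all. TATCGAT, the core of the DNA replication-related element, was in 0 of 8 (exact 95% interval 0.0% to 36.9%), against 10.8% of all conservative sites. It was in 18.8% of conservative sites in promoters and in 2.29% of those outside them. These sites are few and share genes, and a word in a window is not a binding site.

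Other genes of limb axis patterning, 39 in all, had conservative summits at 22 (56.4%, against 40.8% of all genes). In the peaks present in all 3 replicates they had 5 (12.8%, against 20.4%). Gene length was not matched in these shares, and longer genes had conservative summits more often. Among the 22 were the secreted signals dpp and wg, the EGF receptor ligand vn with its receptor Egfr and the protease rho, the Hedgehog receptor ptc, and the transcription factors bab1, bab2, noc, elB, bowl, drm, sob, sd, ct and zfh2. The signal hh and its effector ci, the leg factors ss, rn, btd and Sp1 and the ap partner Chi had none in the conservative list. The 5 genes with a recurrent site were bowl, Bx, tup, noc and bab1, all ranked below both Dll and hth.

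Their positions varied as those of the members did. The bowl summit (bowl is a zinc finger factor of the leg segments) was 213 bp upstream of its TSS, with rank 674 in the conservative list and 865, 568 and 829 in replicates 1, 2 and 3. That at Bx, a LIM-only protein that restrains ap activity, was in an intron 12330 bp from the TSS, with rank 741. That at noc, a zinc finger gene, was intergenic and 14316 bp from its TSS, with rank 827. That at bab1, a BTB domain gene of the tarsus, was in an intron with rank 1674. The summit counted for tup, rank 785, was at the promoter of CG10602.

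Of 84 other homeobox genes, 10 of them also among the 39 axis genes, 26 had a conservative summit (31.0%, against 40.8% of all genes), and 8 had one present in all 3 replicates (9.52%, against 20.4%). Gene length was not matched here either. Among those 8 the highest was in a coding exon of otp on 2R, with rank 106 and signal 763, and ranks of 106, 80 and 147 in the replicates, above Dll in each. That summit was 12992 bp from the otp TSS, while the nearest TSS was that of Cib2, 4662 bp away. Next were the promoter of tin, rank 469, and an intron of zfh1, rank 541, both between Dll at 203 and hth at 608. Below hth came the site counted for tup, then that for ro at rank 1109, which lay 49 bp from the TSS of ms(3)K81, and that at PHDP, rank 1311.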

How the data were processed

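The authors' deposited narrowPeak lists on dm6 give a peak signal, the caller's own enrichment value, which was used to rank peaks within a list, and a summit offset in bp. In the deposited ranked lists a further column holds the IDR as −log10. A control alignment went into each list, according to the text files deposited beside the lists, which do not say which replicates each series-level list compares. Column meanings were taken from the usual narrowPeak and IDR layouts and checked against the values. No aligner or peak caller is named in the sources used here. The conservative list was the main one. Of the other series-level thresholded lists the longest was used, and the 8 columns of single-sample values in each series-level ranked list were not.

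Coordinates are 1-based. Genes are those of Ensembl release 115 on the same assembly, and sequence is the RefSeq genome, in which 99.5% of annotated start codons read ATG. No peak of the thresholded lists passed a chromosome end. After ranking, peaks outside the main chromosomes were dropped. Overlap with a replicate list was 1 bp or more. Where a replicate's thresholded list lacked a site, its ranked list was searched, and the overlapping peak of highest signal was taken. Positions are given from the nearest TSS of the gene itself.

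The members and lists were chosen with earlier results of these data known. All 10 members were named, with up to 6 genes of each other list that had the highest conservative signal in a peak present in all 3 replicates, genes that share a site with a member, and the 3 genes closest to Dll in rank. Axis genes outside that rule are named as examples of the count, chosen after the calls were seen. Of 86 further homeobox symbols 2 had no match in the annotation. Counts are set beside the share of all genes called by the same rule, and no test between groups was possible with 1 group. Gene assignment was tested on simulated data. Python 3.11.15, SciPy 1.17.1 and Matplotlib 3.10.9 were used.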

Additional observations from a re-analysis of the deposited data

How the results depend on the processing

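The count of 4 members with a conservative summit was also 4 by the nearest TSS alone (23.9% of all genes), by the gene body plus 2 kb alone (39.3%), by the body without a margin or the nearest TSS (25.6%) and with start sites of all annotated genes (40.2%). It was 3 within 1 kb of a TSS, without hth (27.0%), and 5 in the longest list. It dropped to 1, Dll, among the 500 peaks of highest signal (7.03% of all genes) and to 2, Dll and hth, in the upper part of the list, cut at its middle (27.2%). The 2 members with a summit in all 3 replicates, Dll and hth, were also 2 in number without replicate 1, 2 or 3 (22.3%, 21.9% and 25.7% of all genes). There were also 2 with an overlap of 0.5 of the peak (18.8%), with summits within 100 bp (19.8%), and at an IDR of up to 0.05 (24.6%), a setting added after seeing the data. The number of summits at members was 8 by each of 3 other ways of assignment and 10 in the longest list. The mean of 2.67 members over the replicates lay between 2.0 and 3.0 without any 1 replicate and was 2.0 with lists of equal length. The promoter share was 37.5% within 500 bp and 25.0% within 100 bp, and TAATTA stayed at 0.0% within 50 and 200 bp. Depth is unknown, so a site absent from a list may lie below what that library could show.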

Other observations

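C15 had no summit of its own, and the conservative summit nearest to it was a strong one. That summit, at 3R 21520368, lay between genes, was nearest to sp3 and ranked 77 of 4943. It was 7554 bp beyond the gene, farther than the median distance of 4323 bp, and 39.5% of protein-coding genes lay farther from a conservative summit. It ranked above every site at the 10 limb genes, and 3 conservative summits in all lay within 20 kb of C15, and 45.8% of protein-coding genes had 3 or more. The gene dac had 6 within 20 kb and none assigned to it, and 12.4% of genes had 6 or more. The nearest to dac was at the promoter of Tpr2, 5525 bp away, with rank 1724, and 45.5% of genes lay farther from one. Around exd, ap and B-H1 there were 0 within the same distance, as at 20.6% of genes. Gene length was not matched in these shares. These counts describe position only, and whether any of these sites acts on a limb gene was not tested.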
